A study of Homo sapiens with 16 samples.

Results

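The short arm of chromosome 21 (21p) and the stretch of chromosome 22 beside its centromere carried 14543 of the 6172657 NF-κB peaks listed for T47D cells, 6205 on 21p and 8338 on 22. Members were the peaks of up to 5000 bp whose summit lay in chr21:5000000-10900000 or chr22:10500000-17000000 of GRCh38 (hg38), among all peaks of that length on chromosomes 1 to 22, X and Y. Peaks at 20 to 35 Mb of the same chromosomes, 32069 on 21 and 29486 on 22, served as comparison stretches within the same lists. Members were chosen by summit position and length, and no fold, p-value or q-value entered beyond the listing of the peak.

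ChIP-seq, the sequencing of DNA fragments pulled down with an antibody, was done in T47D, an established estrogen receptor–positive (Luminal A) breast cancer line. Cells carried lentiviral shRNA against DAB2IP, a RasGAP that restrains Ras signaling (knockdown), or an empty vector (control), and both were selected with puromycin, so both carry an integrated vector. Antibodies against RELA (p65), RELB and NFKB2 gave 6 groups of 2 libraries, 12 libraries in all, and 4 input libraries entered only through the peak calls. Crosslinking used disuccinimidyl glutarate and then formaldehyde. The labels do not say whether libraries with different replicate numbers came from separate cultures, so p-values measure the spread between these libraries, which may be technical. The 3 libraries of 1 condition and replicate number, for which the labels list 1 input, are called a preparation here, and there were 4. Peak lists do not report DAB2IP expression, so the knockdown could not be checked from them.

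Chromosomes 21 and 22 are acrocentric: their short arms hold tandem copies of the ribosomal RNA genes, which RNA polymerase I transcribes in the nucleolus as a 45S precursor that is cut into 18S, 5.8S and 28S rRNA. Around them lie satellite repeats, centromere sequence and segmental duplications, long copies of sequence found at several places of the genome. An assembly holds only some of these copies, and a short read from 1 copy can be placed on another or on several. NF-κB is a family of dimeric transcription factors. RELA belongs mainly to the canonical pathway, whereas RELB and the p52 product of NFKB2 act in the noncanonical pathway.

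MicroRNA genes on 21p lie in or beside the annotated ribosomal RNA genes and also apart from them, as MIR8069-1 does. The 3 microRNAs with peaks at or close to their genes are shown with the seed (bases 2 to 8) in capitals, 5′ to 3′, from RefSeq (GRCh38.p14). MIR3648-1, in the spacer at the front of the 45S gene RNA45SN2, had 8 peaks in 7 libraries within 1 kb. Its mature sequence is given from the entry of the second copy, MIR3648-2 (chr21:8987026-8987046, plus strand), which had 0 peaks. MIR8069-1 (chr21:6859224-6859246, plus strand) had 10 peaks in 9 libraries, on at most 3 fragments at the summit and with −log10 q of 0. MIR6724-4 (chr21:8432540-8432562, plus strand), just before the 45S gene RNA45SN1, had 3 peaks in 3 control libraries, while MIR6724-1, MIR6724-2 and MIR6724-3 had 0. Each of these 3 peaks stood on 1 fragment with −log10 q of 0, and 1 fragment cannot be told from a stray read. The 3 seeds differ from each other.
hsa-miR-3648: aGCCGCGGggaucgccgaggg
hsa-miR-8069: gGAUGGUUgggggcggucggcgu
hsa-miR-6724-5p: cUGGGCCCgcggcgggcgugggg

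Promoters bear on these peaks because NF-κB binds κB sites. Of the 56 RefSeq promoters in the 2 stretches, 25 lay under a member peak. The κB consensus, searched on both strands over 300 bases of each promoter, was present in 5.91% of all 35116 promoters, in 1 of the 56 and in 0 of the 25. Its 5-base core GGGAA, also searched on both strands, which lies inside many κB matches, was present in 65.0% of all promoters, in 39 of the 56 (69.6%) and in 15 of the 25 (60%). A match is a description of letters and not a bound site. The 250 bases before the start of 3 genes whose promoter entries had peaks in 4 libraries each are printed 5′ to 3′ of the gene with the core of either strand in capitals: CCT8L2 (chr22:16592811-16593060, minus strand), whose peaks were in control libraries, LOC110091777 (chr21:6858200-6858449, plus strand), the host of MIR8069-1, and CH507-9B2.8 (chr21:5086452-5086701, plus strand), which held 4 cores.
CCT8L2: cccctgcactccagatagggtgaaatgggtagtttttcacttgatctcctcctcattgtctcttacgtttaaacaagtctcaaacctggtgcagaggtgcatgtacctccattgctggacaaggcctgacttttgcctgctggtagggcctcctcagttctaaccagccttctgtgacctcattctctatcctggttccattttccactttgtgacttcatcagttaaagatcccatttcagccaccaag
LOC110091777: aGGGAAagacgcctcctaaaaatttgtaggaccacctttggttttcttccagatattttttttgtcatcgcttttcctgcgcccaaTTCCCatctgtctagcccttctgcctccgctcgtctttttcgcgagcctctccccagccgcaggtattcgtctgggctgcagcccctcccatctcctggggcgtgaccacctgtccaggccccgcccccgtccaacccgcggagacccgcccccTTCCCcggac
CH507-9B2.8: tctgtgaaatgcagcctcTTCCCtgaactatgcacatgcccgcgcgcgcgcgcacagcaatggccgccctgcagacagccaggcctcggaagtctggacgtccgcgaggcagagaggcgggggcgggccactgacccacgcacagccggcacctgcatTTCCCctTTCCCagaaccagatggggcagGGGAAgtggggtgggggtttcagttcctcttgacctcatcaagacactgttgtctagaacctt

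By occupied sequence, peaks were about as dense on 21p as in its comparison stretch, and somewhat less dense on 22. Per megabase of occupied sequence (10-kb bins that held a summit in any library, 3.18 of 5.9 Mb on 21p and 4.98 of 6.5 Mb on 22), 21p held a median of 179 peaks over the 12 libraries (34.3 to 227) against 193 (25.4 to 291) in its comparison stretch. The stretch on 22 held 155 (20.3 to 191) against 179 (21.5 to 286). Occupied bins made up 53.9% of 21p and 76.6% of the stretch on 22, against 97.9% and 97% of the comparison stretches. Bins without a summit may be assembly gaps or sequence without peaks, which were not told apart. Over the full length, such bins included, the ratio on 21p was lower, as given among the alternatives in the closing section. The lowest values belonged to knockdown RELA replicate 1 and knockdown RELB replicate 1, whose lists were the shortest, with 105534 and 75078 peaks where the other 10 held 517650 to 708764. The log2 ratio of stretch over comparison was −0.07 ± 0.34 (SD, n = 12) on 21p, with an exact two-sided sign-flip permutation p of 0.501, and −0.21 ± 0.28 on 22, with p = 0.0283 by the same exact test. Of 14 such tests within libraries, the Benjamini-Hochberg adjusted p-values of these (exact permutation) were 0.501 and 0.0330. The labels list 1 input for the 3 libraries of a preparation, so the 12 libraries are not independent in these tests. Over the 4 preparations the exact permutation p was 0.75 on 21p. On 22 it was the smallest that 4 values allow (2 of 16 sign patterns), which is above 0.05.

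The density result depended on which peaks were counted. Among the 20000 smallest p-values of each list, 21p held 10.7 to 23.6 peaks per occupied Mb against 6.67 to 8.65 in its comparison stretch, and 22 held 7.23 to 20.1 against 4.05 to 7.22. These log2 ratios were 1.15 on 21p and 1.15 on 22, each with an exact sign-flip permutation p of 0.000488, the smallest that 12 libraries allow. Over the 4 preparations, whose 3 libraries share an input, both ratios also reached the smallest exact p that 4 values allow (2 of 16 sign patterns). With all peaks, the lower density on 22 lay in chr22:12900000-15100000, the centromere block, where the assembly places models of centromere sequence, and without it the ratio was 0.16 (exact permutation p = 0.0835). Its exact permutation p also rose to between 0.0547 and 0.0566 when control RELB replicate 1 or any 1 of the 4 NFKB2 libraries was left out (ratios −0.16 to −0.19). Without the 2 libraries with short lists the ratio on 21p was −0.18 (exact permutation p = 0.0156), an alternative chosen after seeing the data.

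**Figure D1:**
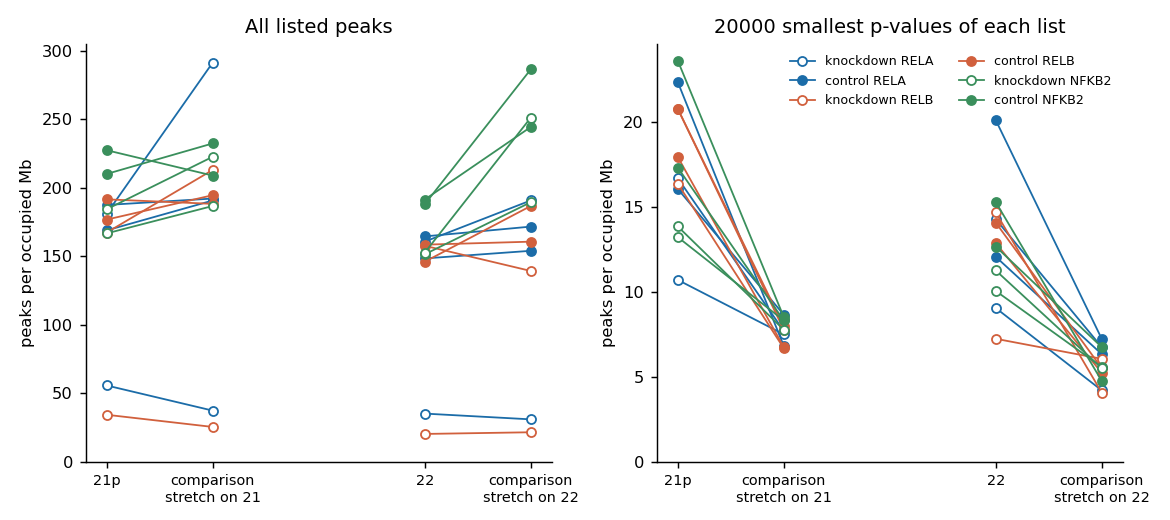
Peaks per occupied Mb (y axis) in each stretch and its comparison stretch for all listed peaks (left) and for the 20000 smallest p-values of each list (right), with each line joining 2 points of 1 library, filled for control and open for knockdown. On the right the lines of the 12 libraries fall from stretch to comparison, from medians of 16.98 and 12.8 peaks to 7.76 and 5.53, while on the left they run both ways.

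The peaks themselves were of another make. The number of fragments at each summit and the local background were computed back from each listed fold enrichment with its p-value. In the comparison stretches most summits stood on a few fragments, whereas the 2 stretches held both very shallow and very deep ones. Summits on a single fragment made up a median of 17.1% of a library's peaks on 21p and 22.9% on 22, against 0.313% and 2.54% in the comparison stretches. The difference was 14.5 ± 7.31 percentage points (SD, n = 12) on 21p and 16.8 ± 8.72 on 22, positive in 10 of 12 libraries, each with an exact sign-flip permutation p of 0.00195 (adjusted 0.00456). The other 2 were the libraries with short lists, which held no 1-fragment summit in any of the stretches. Over the 4 preparations both differences had the smallest exact permutation p that 4 values allow, which is above 0.05.

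Summits on 10 or more fragments made up a median of 3.84% of peaks on 21p (1.04% to 15.8%) and 1.17% on 22 (up to 5.14%). In the comparison stretches the medians were 0 and 0. The differences, 5.22 ± 4.20 and 1.67 ± 1.40 percentage points (SD, n = 12), were positive in 12 of 12 libraries with an exact sign-flip permutation p of 0.000488 (adjusted 0.00171) and all 4 preparation means positive. The deepest summit of a library stood on 12 to 47 fragments on 21p and on 10 to 29 on 22, against 7 to 10 and 6 to 8. Both fragment classes were compared after the values were seen.

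The local background spread the same way, which is no separate evidence, since fragments and background were recovered together from the same fold and p-value. With a listing cut-off at an unadjusted p of 0.05, a summit on 1 fragment can be listed only over a low background. It exceeded 2 fragments at a median of 18.7% of summits on 21p and 6.68% on 22, against 0.596% and 0.0615% in the comparison stretches, and it was under 0.2 fragments at 10.86% and 21.8% against 0.412% and 1.70%. The median background showed little of this spread. Its log2 ratio to the comparison was −0.18 ± 0.17 (SD, n = 12) on 21p and 0.11 ± 0.17 on 22, with exact sign-flip permutation p-values of 0.00684 and 0.00781 (adjusted 0.0106 and 0.0109). On 22 the ratio was −0.17 among the 20000 smallest p-values, with an exact permutation p of 0.227. Median log2 fold enrichment differed from the comparison by −0.03 ± 0.05 on 21p (exact sign-flip permutation p = 0.0332, adjusted 0.0358) and by −0.05 ± 0.05 on 22 (exact permutation p = 0.00488, adjusted 0.00854). On 21p this p rose to between 0.0508 and 0.0664 (exact permutation) when any 1 of 7 libraries was left out, namely replicate 1 of each of the 6 groups except knockdown RELB, knockdown RELA replicate 2 or control RELB replicate 2, with differences of −0.02 to −0.03. On 22 the fold difference was −0.02 without the centromere block (exact permutation p = 0.159). With all peaks, background and fold in both stretches had, over the 4 preparations, the smallest exact permutation p that 4 values allow. That p is above 0.05.

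**Figure D2:**
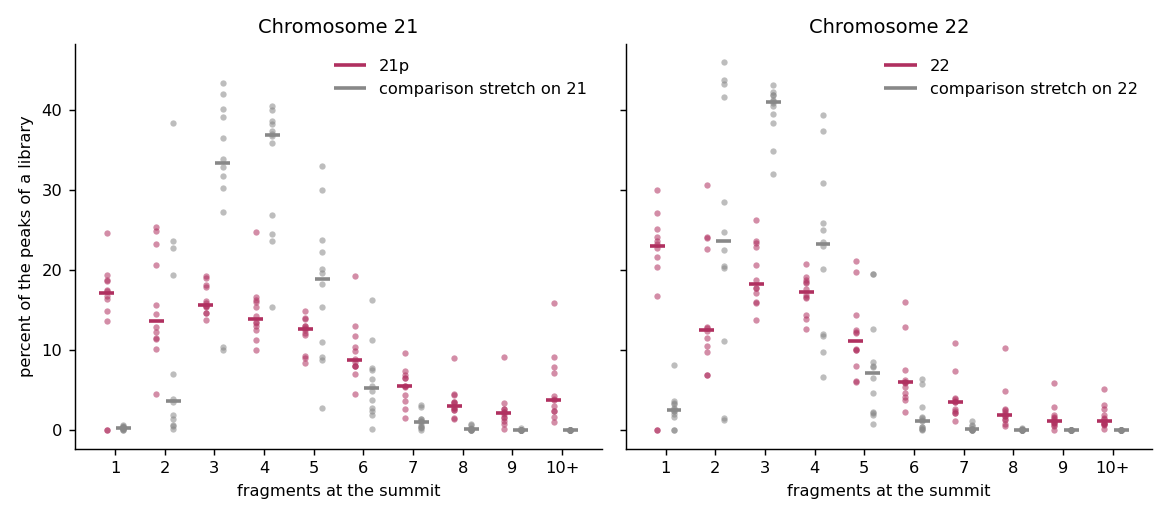
Percent of a library's peaks (y axis) by the number of fragments at the summit (x axis, with 10 or more in the last class) on chromosome 21 (left) and 22 (right); dots are the 12 libraries and bars their medians. The comparison stretches gather at 2 to 5 fragments, while the 2 stretches also fill the classes of 1 fragment (medians 17.1% and 22.9%) and of 10 or more (3.84% and 1.17%).

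Blocks within the stretches differed in these shallow and deep summits. The centromere block held 714 peaks, of which 582 (81.5%) stood on 1 fragment and 0 on 10 or more, at a median background of 0.0635 fragments. The ribosomal RNA gene units, with 5 kb added on either side, held 52 peaks, of which 12 (23.1%) stood on 10 or more fragments. The rest of 21p held 246 such summits among 6153 peaks (3.998%), the part of 22 before the centromere block held 110 among 3480 (3.16%), and the part after it, nearest to the gene-bearing long arm, held 5 among 4144 (0.121%). In the centromere block, knockdown RELA replicate 2 and knockdown NFKB2 replicate 2 listed 18 and 14 peaks, and in these 2 libraries intervals over 5 kb, which are no members, lay over 45.0% and 51.2% of it. The 2 libraries with short lists held 5 and 2 peaks there and the other 8 held 75 to 98.

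Few members passed the peak caller's own correction. A q-value of at most 0.05 was reached by 17 peaks on 21p in 7 libraries and by 15 on 22 in 9 libraries, against 2 and 2 in the comparison stretches. As shares of the peaks these were 0.274% and 0.180%, against 0.00624% and 0.00678%, and 0.0249% of all peaks of the 12 lists passed. Within libraries the share was higher by 0.222 ± 0.281 percentage points on 21p (SD, n = 12; exact sign-flip permutation p = 0.0234, adjusted 0.0298) and by 0.191 ± 0.216 on 22 (exact permutation p = 0.00391, adjusted 0.00781). Over the 4 preparations the exact permutation p was 0.25 on 21p and the smallest possible on 22. The ribosomal RNA genes with 5 kb added on either side held 7 of the 32 peaks. Without them the difference on 21p was 0.1245 with an exact permutation p of 0.0938. Spacer farther from the genes was not left out in this test. The peaks at chr21:8228645-8228850 (21 fragments) and chr21:8230598-8230774 (27 fragments) lay past the 5 kb added after a gene. They were counted with the rest of 21p, and whether they belong to a repeat unit was not tested.

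By library the 32 peaks numbered 22 in control and 10 in knockdown cells, and 13, 14 and 5 for RELA, RELB and NFKB2. By preparation they numbered 8 and 14 in control 1 and 2 and 1 and 9 in knockdown 1 and 2. Over all chromosomes the peaks that passed numbered 873 in control and 667 in knockdown cells, 491, 589 and 460 for the 3 antibodies, and 432, 441, 247 and 420 for the 4 preparations. None of these differences was tested. The part of 22 before the centromere block held 11 of them. The highest −log10 q was 5.17, at chr21:10369381-10369606 in control RELB replicate 1, where 15 fragments stood over a background of 1.33 (6.87-fold). Its region had peaks in 3 other libraries, on 6 or 7 fragments and with −log10 q of 0. Next came chr22:12511702-12512117 in control NFKB2 replicate 2, with −log10 q of 4.45 on 11 fragments (7.10-fold). That region was called in the 6 control libraries and in both knockdown NFKB2 libraries, where its folds were 1.95 and 1.85. These positions were chosen for their q-values, so the values are a description.

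Summits were placed along the 3 annotated 45S genes on 21p, RNA45SN2 (chr21:8205988-8219302), RNA45SN3 (chr21:8389035-8402343) and RNA45SN1 (chr21:8433222-8446572). A unit here is the gene with 5 kb on either side, and spacer farther out was not searched as part of it. The units held 27 peaks in the transcribed parts and 22 downstream, and the downstream ones were deeper, with up to 37 fragments on a median background of 2.57, against up to 8 on 0.171. There were 3 peaks upstream, each on 1 fragment. Of the 7 peaks with q of at most 0.05, 6 were downstream and 1 was transcribed. Reads from any rDNA copy may be placed on these 3, so the copy a peak belongs to is uncertain.

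The same spot just past the end of the 45S gene carried peaks at different depths in different copies. From 13.7 to 14.1 kb after the start of RNA45SN2, 5 libraries had peaks: knockdown RELA replicate 1 stood on 37 fragments over a background of 14, control RELA replicate 2 on 35 over 10.2, knockdown RELB replicate 1 on 29 over 14, control RELB replicate 2 on 25 over 8.85 and control NFKB2 replicate 2 on 20 over 10.3. Folds ran from 1.86 to 3.21, and control RELA replicate 2 alone had q of at most 0.05 (−log10 q 3.20). At nearly the same distance from RNA45SN1, summits of 7 libraries stood on 2 to 6 fragments over 0.0779 to 0.532. Here −log10 q was 3.46 in knockdown RELA replicate 2, 3.44 in knockdown RELB replicate 2 and 1.60 in control RELA replicate 2, and 0 in the other 4. At RNA45SN3 the corresponding positions held 3 peaks of 1 fragment each. Folds ran from 1.96 to 6.15 at RNA45SN1 and from 1.49 to 1.55 at RNA45SN3. At this place of the repeat unit, deep background went with low folds, and shallow background with both low and high ones.

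Other spots recurred within a unit. In the external spacer before 18S of RNA45SN2, 2.25 to 3.01 kb after the start and beside MIR3648-1, 7 libraries from the 4 preparations had peaks on 2 to 7 fragments, with folds of 2.16 to 5.13 and a −log10 q of 1.51 in control RELA replicate 2. In the 28S gene RNA28SN2, 8.51 to 8.98 kb after the start, 9 libraries had peaks on 2 to 5 fragments, all with −log10 q of 0. In RNA45SN3, 7 libraries had peaks on 1 or 2 fragments at 7.55 to 8.01 kb, where the 28S gene begins. In the intergenic spacer 16.5 to 16.7 kb after the start of RNA45SN3, control RELA replicate 2 had 25 fragments over 4.83 (−log10 q 4.39) and control NFKB2 replicate 1 had 16 over 2.26 (−log10 q 2.98). No other library, control or knockdown, had a peak there.

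**Figure D3:**
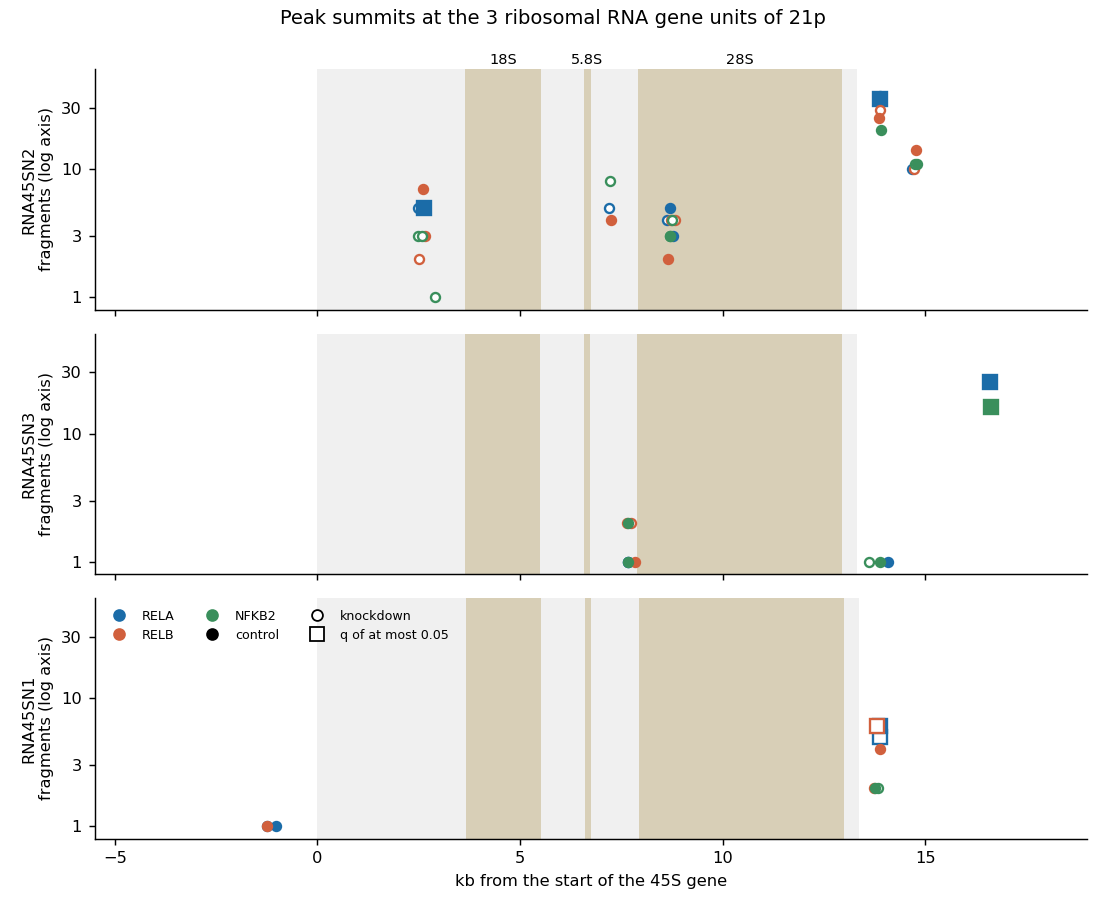
Fragments at the summit (y axis, log scale) against distance from the start of the 45S gene in kb (x axis) for each of the 3 units; grey marks the 45S gene, tan the 18S, 5.8S and 28S parts, color the antibody, and squares mark q of at most 0.05. Summits just past the end of RNA45SN2 stand on 20 to 37 fragments, those at the same distance in RNA45SN1 on 2 to 6, and 2 farther downstream of RNA45SN3 on 16 and 25.

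Member peaks recurred between libraries more often than peaks elsewhere. Merged where they shared 1 bp, peaks formed 2584 regions on 21p and 3914 on 22, of which 54.1% and 46.7% were called in 2 or more libraries, against 39.9% and 36.5% in the comparison stretches and 39.7% over all chromosomes. Regions in 9 or more libraries numbered 14 (0.542%) and 12 (0.307%), against 6 and 5 in the comparison stretches and 0.101% over all chromosomes. The share of a library's peaks that met a peak of another preparation, a measure added after the values were seen, had medians of 71.6% and 67.4% against 53.8% and 49.8%. It was higher by 17.5 ± 2.86 percentage points on 21p and by 18.5 ± 4.93 on 22 (SD, n = 12), in 12 of 12 libraries, with an exact sign-flip permutation p of 0.000488 (adjusted 0.00171). The means of the 4 preparations were positive in both stretches. An overlap counts for both libraries that share it, so neither the 12 values nor the 4 means are independent. The p-value of this measure therefore overstates its support. The occupied bases under peaks of a library had medians of 4.23% and 3.49% against 4.45% and 3.93%.

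The most recurrent regions were weak ones. A single region, chr21:8878989-8880358 over the ankyrin repeat pseudogene ANKRD20A16P, was called in 12 of 12 libraries, where 0.00147% of regions over all chromosomes were. Its folds ran from 1.53 in knockdown RELA replicate 2 to 2.88 in knockdown RELA replicate 1, on 1 to 3 fragments, and −log10 q was 0 in the 12 libraries. Next came chr22:12149730-12150838 at LOC105379516, called in 11 libraries and absent from knockdown RELB replicate 1, with folds from 2.26 in control NFKB2 replicate 1 to 5.18 in control RELB replicate 1 (−log10 q 1.14). Of the 26 regions called in 9 or more libraries, 2 held a peak with q of at most 0.05, both with 9 libraries: chr22:11152386-11153017 (−log10 q 1.74) and chr21:10466907-10467469 in BAGE2 (1.67). The 9 regions with 10 or more libraries held none, and the 10th place was taken from 17 regions with 9 by their q-values. The 7th of these lay in BAGE2, a member of the B melanoma antigen family of duplicated cancer-testis sequences, with 10 libraries.

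**Figure D4:**
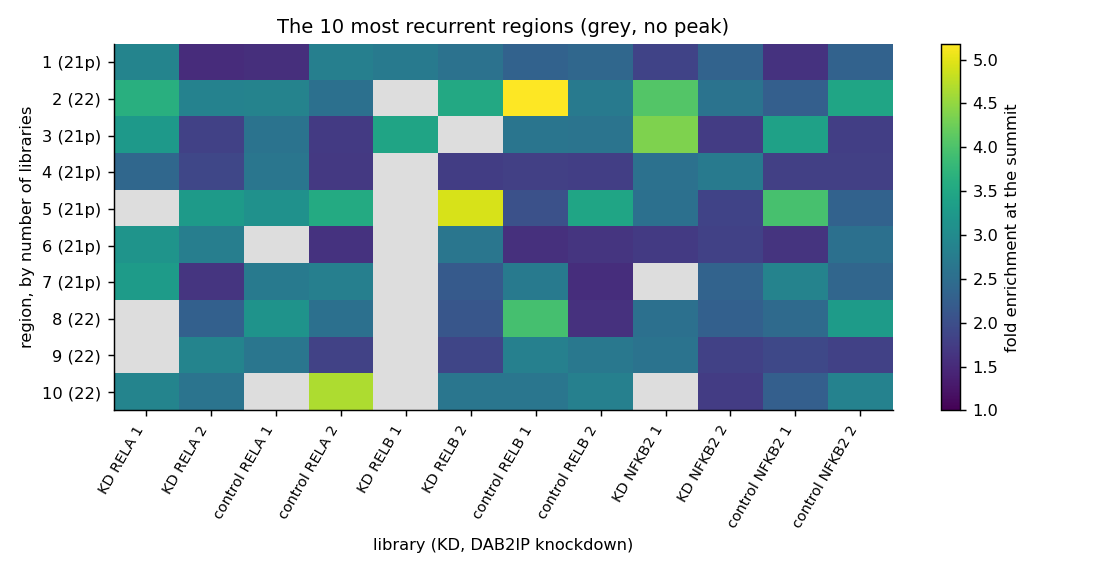
Fold enrichment at the summit (color) of the 10 regions called in most libraries (rows) in each of the 12 libraries (columns), with grey where no peak was listed. The first row is colored in 12 libraries at 1.53- to 2.88-fold, and knockdown RELB replicate 1, whose list is the shortest, is grey in most rows.

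No difference between knockdown and control in the share of peaks on these stretches was detectable with 2 libraries per group. Per 100000 listed peaks, knockdown RELA held 334 and 200 members and control RELA 242 and 273. Knockdown RELB held 280 and 238 and control RELB 231 and 266. Knockdown NFKB2 held 223 and 202 and control NFKB2 226 and 248. The groups overlapped for RELA and RELB, and for NFKB2 both knockdown values lay below both control values. Log2 ratios of knockdown over control were 0.01, 0.06 and −0.16, with exact two-sided permutation p-values of 1, 0.667 and 0.333, and 0.333 is the smallest that 2 against 2 allows. For RELA the sign rested on the short list of knockdown RELA replicate 1, without which the ratio was −0.36, and for RELB it was −0.06 without knockdown RELB replicate 1 and −0.04 without control RELB replicate 1. Without control RELA replicate 1 it was −0.08.

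Regions called in both libraries of 1 condition and neither of the other were more frequent here than over all chromosomes, and so were regions split across conditions. The RELA libraries gave 40 knockdown-only regions (1.12%, against 0.566% over all chromosomes) and 158 control-only regions (4.43% against 2.44%). The RELB libraries gave 20 (0.595% against 0.347%) and 166 (4.94% against 2.96%). For both antibodies knockdown replicate 1 is a short list (105534 and 75078 peaks). A knockdown-only region must be in that list and a control-only region must be absent from it. These counts are therefore no measure of binding gained or lost with knockdown. The mixed splits below are limited by the same lists. The NFKB2 libraries gave 106 (2.46% against 2.09%) and 205 (4.76% against 2.93%). Each mixed split, both libraries of which come from different conditions, held 36 to 143 regions with RELA (1.01% to 4.01%, against 0.415% to 3.43% over all chromosomes). With RELB they held 19 to 183 (0.565% to 5.45%, against 0.324% to 3.13%), and with NFKB2 131 to 162 (3.04% to 3.76%, against 2.13% to 2.83%). The control-only counts of RELA and NFKB2 lay above those ranges, the knockdown-only count of NFKB2 below, and the other 3 inside. Over all chromosomes the NFKB2 shares lay above and below their mixed range in the same way, whereas the RELA control-only share lay inside its mixed range. In these stretches, intervals over 5 kb, which are no members, were listed in knockdown RELA replicate 2 and knockdown NFKB2 replicate 2 alone. A region under such an interval counts here as not called in that library. The part of these intervals in the control-only counts was not tested. A complete set of 4 calls was found at 10 RELA, 3 RELB and 36 NFKB2 regions (0.280%, 0.0893% and 0.836%, against 0.0347%, 0.0274% and 0.308%). None of the condition-only regions had a q-value below 1 in both of its libraries.

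Among the best condition-only regions of each antibody, the control-only RELB region chr21:10428140-10428347 in BAGE2 had folds of 4.14 and 3.80 on 7 and 8 fragments. Close by in BAGE2, chr21:10429200-10429527 was knockdown-only for NFKB2, at 3.75- and 3.25-fold on 10 and 5 fragments. The control-only RELA region chr21:6086447-6087128 at CH507-42P11.6 had folds of 3.52 and 3.89 on 3 and 4 fragments. Each of these had −log10 q of 0 in both libraries.

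The lists resembled each other by preparation. The Jaccard index, the percent of bases under peaks of either library that lie under peaks of both, averaged 8.27 ± 2.62 (SD) over the 12 pairs of a preparation, which differ in antibody. It was 4.66 ± 2.31 over the 6 pairs of replicates of a group and 4.46 to 4.74 over the 3 other kinds of pairs. Pairs of a preparation exceeded the other pairs by 3.69 percentage points (exact one-sided permutation p = 0.00174, the smallest of 576 arrangements). Libraries of 1 antibody never share a preparation, so antibodies and conditions were compared over pairs of different preparations alone, for antibodies an alternative chosen after seeing the data. Over these pairs the index was higher by 0.107 points within an antibody (exact one-sided permutation p = 0.106) and by 0.184 points within a condition (exact permutation p = 0.333, the smallest of 3 splits). With pairs of a preparation counted among the others, the antibody difference was −0.824 by that construction, with the same exact permutation p, and leaving out control RELA replicate 2 (−0.521) or knockdown RELB replicate 2 (−0.685) brought the exact permutation p to 0.0417. In the comparison stretches the indices were lower, 3.56 within a preparation and 1.85 to 2.05 otherwise. The difference by preparation there was 1.62 points (exact permutation p = 0.00174), by antibody 0.128 (exact permutation p = 0.0231) and by condition −0.0701 (exact permutation p = 1), the last 2 over pairs of different preparations. Within a preparation the index here was lowest in the knockdown preparation 1 (4.23), which holds the 2 short lists, and 8.82 to 10.6 in the other 3.

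**Figure D5:**
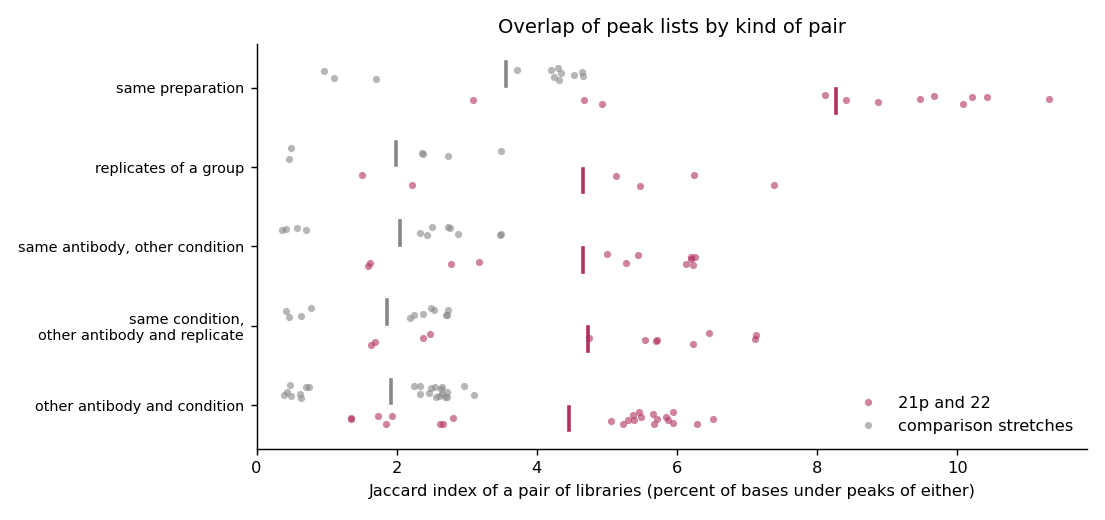
Jaccard index of each pair of libraries in percent (x axis) by kind of pair (rows), for the 2 stretches and the comparison stretches; dots are pairs and bars means. Pairs of a preparation average 8.27 in the 2 stretches and 3.56 in the comparison stretches, above the 4 other kinds of pairs in both.

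Of 24 annotated protein-coding genes, 20 had a peak within 1 kb in some library (95.9% of such genes over all chromosomes did), and 3 had peaks in all 12 libraries (35.8% over all chromosomes). These were TPTE, a testis-expressed phosphatase related to tensin, with 157 peaks, POTEH, an ankyrin-repeat gene of the POTE family, with 84, and GAB4, of the GRB2-associated binding family, with 69. GAB4 runs on to chr22:17008222, past the end of the stretch, and peaks beyond that end were not counted. XKR3, related to the XK membrane transporter, had 105 peaks in 11 libraries, and OR11H1, an olfactory receptor gene, had 6 in 6. POTEH alone had a peak with q of at most 0.05 (0.639% of genes over all chromosomes had one), at chr22:15699353-15699546 in knockdown RELA replicate 1, on 11 fragments over 0.882 (−log10 q 1.85). POTEH, TPTE and many LOC genes of 21p have near-identical copies elsewhere, so their peaks are uncertain as to copy.

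CCT8L2, a copy-derived gene related to a chaperonin subunit, had peaks in control cells alone, and it was singled out after its values were seen. Within 1 kb of the gene the 2 control RELA libraries listed 3 and 2 peaks, control RELB 2 and 1, and control NFKB2 1 and 4, which makes 13, and the 6 knockdown libraries listed 0. Over all chromosomes 8 of 20037 protein-coding genes (0.0399%) were called in the 6 control and no knockdown library, and 0 the other way round. Other protein-coding genes here had peaks in 1 condition alone in fewer libraries. LOC105379504 had 4 peaks in 3 knockdown libraries, and LOC102724594 had 2 peaks in 2 control libraries. The exact permutation p over the 4 preparations was 0.333, the smallest they allow. The 13 peaks had −log10 q of 0, and in the flanks up to 25 kb the knockdown libraries listed 32 peaks and the control libraries 44 (exact permutation p = 1). Both short lists, which are knockdown libraries, held 0 peaks in those flanks too, whereas the other 4 knockdown libraries held 5 to 13 there.

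Peaks stopped at 3 of the 4 outer borders. The 100 kb outside either end of 21p and before the start on 22 held 0 peaks, against 148, 42 and 81 in the 100 kb inside. No peak can be listed where the assembly holds no sequence. Whether these outer windows are such gaps was not tested, so the borders are not read as a property of binding. At the end of the stretch on 22, where ordinary sequence goes on, 191 peaks lay in the last 100 kb inside and 203 in the first 100 kb outside.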

How the data were processed

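Per the labels and the study's methods, paired-end ChIP-seq reads were mapped to hg38 with BWA 0.7.12 and peaks were called in each library with MACS2 2.1.0 (submitters' processing notes, which also name CASAVA 1.8 and DiffBind). The deposited lists give positions in base pairs, the authors' score (10 times −log10 p), the deposited ratio (fold enrichment over local background), and the deposited −log10 p-value and −log10 q-value. Listed peaks reach an unadjusted p of 0.05, so most are weak. How reads with several placements were treated, and library depth, are not given in the sources used here.

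Members and lists were chosen with earlier results of these data known. Intervals listed more than once were counted once. Fragments and background at a summit were recovered from fold and p by the MACS2 formulas (100% of peaks within 1e-04). For knockdown RELA and RELB replicate 1 the values could be recovered only with the IP scaled by 0.910 and 0.982. Shares at q of at most 0.05, densities, folds and backgrounds were compared within libraries by exact sign-flip permutation, and groups of 2 by exact permutation. Region counts got no test. Named regions were the 10 called in most libraries and the condition-only regions with the highest lower q, ties by p. Named genes were the protein-coding, ribosomal RNA and microRNA genes there. Regions named for q of at most 0.05 were added after values were seen. Genes, promoters and microRNAs came from RefSeq tables of GRCh38.p14. No genome sequence was used, so peak sequences are not analysed here. Tables were handled in pandas 2.3.3 and numpy 2.4.6, with scipy 1.17.1 for the recovery, under Python 3.11.15, figures were drawn with matplotlib 3.10.9, and the code was tested on simulated data.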

Additional observations from a re-analysis of the deposited data

Results flagged for a closer look

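Intervals over 5 kb, which were left out of the comparisons, appeared in the 2 stretches in 2 of the 12 lists, while the 6 control lists and the other 4 knockdown lists held 0. Knockdown RELA replicate 2 listed 9 on 21p and 43 on 22, covering 0.461 and 1.24 Mb. Knockdown NFKB2 replicate 2 listed 7 on 21p and 39 on 22, covering 0.276 and 1.27 Mb. The longest, of 406860 bp on 22, had the same length in both lists. Knockdown RELB replicate 2, of the same preparation, listed none. In the comparison stretches the same 2 libraries listed 3 and 4 (RELA) and 1 and 2 (NFKB2). The part of these intervals in the results above was not tested. Groups of 2 libraries are too small to look for a library far from the others of its group.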

How the results depend on the processing

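Under the alternatives, 248 values stayed as reported in sign and call (counts, within 1.5 times), 31 moved, 24 reversed, 19 lost and 4 gained a call. With the 20000 smallest p-values, density reversed to 1.15 on 21p and 1.15 on 22, median fold fell short of a call on 21p (−0.0067) and 22 (−0.0163), background on 22 was −0.17, knockdown over control was −0.48 for RELA and −0.22 for RELB, and separation by condition was −0.145. The control-only counts were then 4, 7 and 3 (RELA, RELB, NFKB2), the knockdown-only counts 1, 1 and 1, and 0 regions were in all 12 libraries. With peaks of q at most 0.05 alone, both kinds of condition-only counts and the all-12 count were 0, RELB was −0.17, and separations were −0.0424 by preparation, 0.440 by antibody and −0.210 by condition. Over pairs of different preparations alone, separation by antibody was 0.107. By number of member peaks, knockdown over control was −0.95 for RELA and −1.35 for RELB. Density on 21p was −0.93 over the full length with gaps and −0.18 without the 2 libraries with scaled IP. Density on 22 was 0.158, and fold −0.0155, without the centromere block. The q share on 21p was 0.0148 at −log10 q of at least 5 and 0.1245 without the ribosomal RNA genes and 5 kb on either side. On 22 the q share was 0.0581 at 2 and 0 at 5.

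Leaving out each library in turn gave density ratios of −0.24 to −0.16 on 22, fold differences of −0.0430 to −0.0249 on 21p, knockdown over control of −0.36 to 0.38 for RELA and −0.0581 to 0.173 for RELB, and separations of −1.10 to −0.521 by antibody and −0.295 to 0.796 by condition. Condition-only counts, which then need 1 library fewer, ran from 51 to 974 (RELA), 25 to 835 (RELB) and 149 to 809 (NFKB2) for knockdown-only and from 174 to 1122, 174 to 1090 and 275 to 1117 for control-only, and the all-libraries count from 1 to 3. The cause of these changes was not tested where the alternative's construction does not show it.

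Same-numbered libraries did not deviate together over 112 bins of 100 kb (correlations −0.0242, −0.104 and 0.120), so the numbers were not used as pairs. With the replicate block the ratios were unchanged by construction, 0.01, 0.06 and −0.16, with 0 calls, and crossing the RELB numbers also gave 0 calls. Depth limits the members on 1 fragment, which cannot be told from a single stray read. Repeated sequence limits the copy a peak is assigned to, and 2 libraries per group limit every comparison of conditions.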
